A study of Mus musculus with 2 samples.

Results

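The genes followed here sense mechanical load or answer it: the channel genes Piezo1 and Piezo2, the co-activator genes Yap1 and Wwtr1, the muscle ankyrin gene Ankrd1, and the CCN genes Cyr61, Ctgf, Nov, Wisp1 and Wisp2. They were chosen by name, with earlier results of these data known. They are 10 of the 23930 amplicon targets measured, and all 10 were found under these symbols. Cyr61, Ctgf, Nov, Wisp1 and Wisp2 are the older symbols of Ccn1, Ccn2, Ccn3, Ccn4 and Ccn5. The tissue came from wildtype mouse pups at postnatal day 3. It held the coronal, sagittal and lambdoid sutures, the fibrous joints between the skull bones. RNA of 2 libraries was measured with an amplicon panel, which reads 1 short stretch per gene. They form 1 group with the same batch number and are called library 1 and library 2 after their replicate numbers. There was no second condition, so levels are described and each gene is compared between the 2 libraries only.

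Mechanosensing runs from the membrane to the nucleus. Piezo channels let cations in when the membrane is stretched. YAP, encoded by Yap1, and TAZ, encoded by Wwtr1, move into the nucleus of cells on stiff or stretched matrix and switch on genes together with the DNA-binding TEAD factors. The kinases of the Hippo pathway, LATS1 and LATS2 at its end, phosphorylate YAP and TAZ and hold them in the cytoplasm. Ankrd1, Cyr61 and Ctgf are textbook readouts of this switch. The CCN proteins are secreted, bind integrins and the matrix, and are known from bone, cartilage and tendon. Sutures are stretched and compressed as the brain grows beneath the skull.

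TEAD factors are known to bind the letters GGAATG, so the bases before the transcription start are shown for the members with a RefSeq promoter entry that hold these letters. Each stretch is the 250 bases before the start on build GRCm38.p6, 5' to 3' on the gene's strand, with GGAATG or its reverse complement CATTCC in capitals. All of these genes lie on the minus strand. The Ankrd1 stretch is chr19:36119845-36120094 (inside the gene as GENCODE M21 draws it, which starts further upstream), that of Cyr61 is chr3:145649986-145650235, that of Yap1 is chr9:8004597-8004846 and that of Wwtr1 is chr3:57575911-57576160.
Ankrd1: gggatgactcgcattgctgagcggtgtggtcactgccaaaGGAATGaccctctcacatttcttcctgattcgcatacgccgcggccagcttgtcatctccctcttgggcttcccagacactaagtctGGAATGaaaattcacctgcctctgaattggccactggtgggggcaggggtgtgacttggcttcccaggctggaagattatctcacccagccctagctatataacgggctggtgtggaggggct
Cyr61: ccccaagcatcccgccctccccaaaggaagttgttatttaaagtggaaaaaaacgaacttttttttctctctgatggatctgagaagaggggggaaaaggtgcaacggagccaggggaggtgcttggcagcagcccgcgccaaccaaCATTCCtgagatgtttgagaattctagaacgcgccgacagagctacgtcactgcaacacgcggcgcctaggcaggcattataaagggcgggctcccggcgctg
Yap1: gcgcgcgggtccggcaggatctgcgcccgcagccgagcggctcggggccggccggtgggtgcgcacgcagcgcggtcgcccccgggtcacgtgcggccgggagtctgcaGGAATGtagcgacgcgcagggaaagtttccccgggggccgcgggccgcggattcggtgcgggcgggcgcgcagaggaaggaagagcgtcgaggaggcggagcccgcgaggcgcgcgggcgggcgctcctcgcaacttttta
Wwtr1: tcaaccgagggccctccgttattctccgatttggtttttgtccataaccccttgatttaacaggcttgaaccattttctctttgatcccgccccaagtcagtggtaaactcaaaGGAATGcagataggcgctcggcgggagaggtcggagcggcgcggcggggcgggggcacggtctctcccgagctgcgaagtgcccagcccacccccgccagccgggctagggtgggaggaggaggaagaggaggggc

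Ankrd1 held the letters 2 times, beginning 210 and 123 bases before the start. Cyr61 held them once on the opposite strand, 103 bases before the start. Yap1 and Wwtr1 each held 1 match, 141 and 136 bases before the start. RefSeq lists another start for Wwtr1, whose window covers the same match. Piezo1 also had an entry, and the letters were not in its window. Entries thus existed for 5 members, and 4 of them held the letters, against 14.4% of 27025 genes with a window of this length in that table. Other lists exceeded that share too: 7 of 13 Hippo junction and polarity regulators, 6 of 16 mechanosensitive channels and 3 of 4 Vgll cofactors with an entry held the letters, and nothing here sets the members apart from them. Of 13 further YAP and TAZ target genes with an entry, 4 held them, namely Amotl2, Axl, Crim1 and Ptpn14. None of the 5 member windows held a CArG box, the site of the serum response factor SRF, which was in 1.62% of the genes. Such matches are descriptions of letters and do not show that a factor binds there.

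All 10 genes were detected at 1 CPM (reads scaled to the total of their library) or more in both libraries, as were 55.0% of all targets. At 10 CPM or more in both libraries were 9 of the 10, Ankrd1 being the exception, against 34.6% of all targets. By the mean of the libraries the order was Ctgf, Piezo1, Cyr61, Wisp1, Yap1, Nov, Piezo2, Wwtr1, Wisp2 and Ankrd1. The 2 libraries' values of neighbours in this order overlapped for 5 of 9 neighbouring pairs, those from Cyr61 down to Wwtr1. Ctgf, Piezo1, Cyr61, Wisp2 and Ankrd1 had the same place in each library. Reads of an amplicon panel are not set by gene length, yet amplicons amplify unequally, so this is an order of reads and a weaker statement than a comparison of the same gene across libraries.

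**Figure D1:**
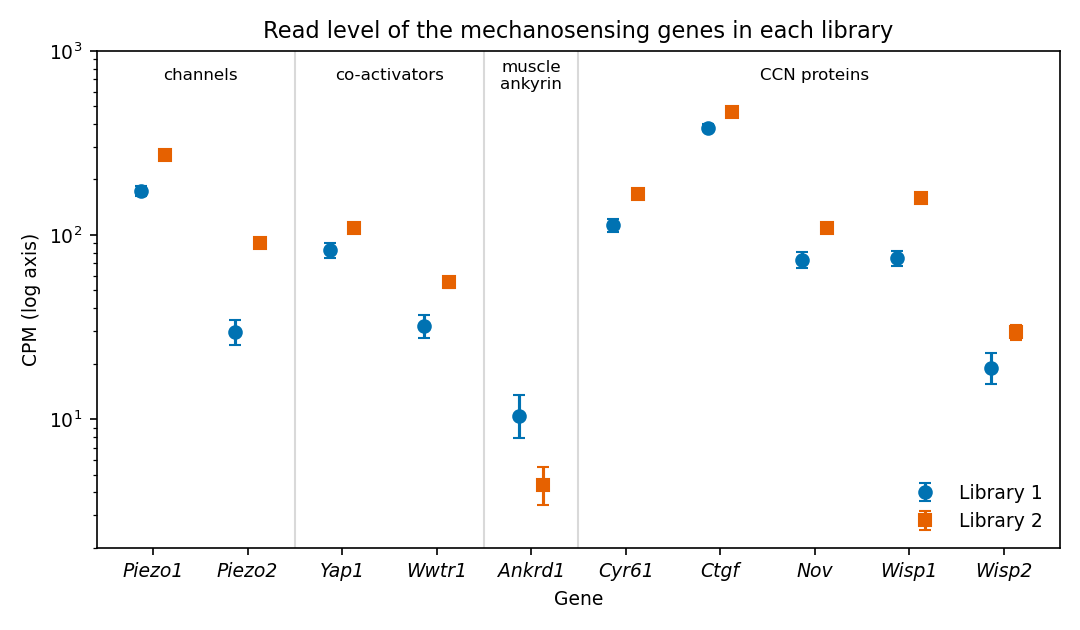
Level of each gene in CPM on a log axis, with circles for library 1 and squares for library 2 and bars for exact 95% Poisson intervals of the reads (counting error only). Ctgf is highest in both libraries at 382 and 464 CPM, Ankrd1 is lowest at 10.4 and 4.37 CPM, and Ankrd1 is the gene whose library 1 value is above its library 2 value.

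Between the libraries the members leaned one way. In the exact two-sided binomial test on reads, adjusted by Benjamini and Hochberg over all 23930 targets, 9 of the 10 were higher in library 2, and Ankrd1 alone was higher in library 1. Of all targets this test called 20.0% higher in library 2 and 17.1% higher in library 1. Among the 9192 targets at a mean of 10 CPM or more, where 9 of the members lie, it called 37.0% higher in library 2 and 32.5% higher in library 1. For the members the median difference, library 2 minus library 1 on the log2(CPM + 1) scale, was 0.60, against 0.05 for targets at a mean of 10 CPM or more, whose central 50% ran from -0.41 to 0.50. The test covers counting error only and compares 2 libraries. With edgeR's exact test at an assumed dispersion of 0.1, none of the 10 members was called, and 1 of them, Piezo2, had an unadjusted p under 0.05. That test called 1.60% of all targets.

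**Figure D2:**
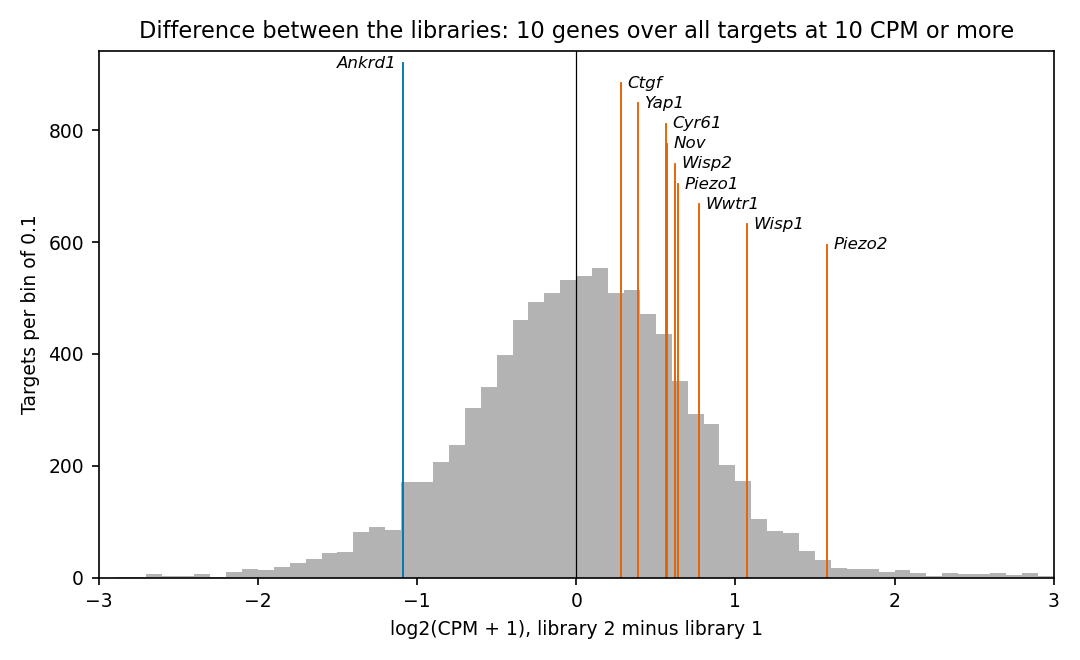
Histogram of the difference in log2(CPM + 1), library 2 minus library 1, for the 9192 targets at a mean of 10 CPM or more (targets beyond 3 on either side lie outside the axis), with a line for each of the 10 genes (Ankrd1 lies below that mean). The line heights carry no value. The lines run from -1.09 for Ankrd1 to 1.58 for Piezo2, and 9 of them lie to the right of 0.

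The channels come first. Piezo1, the broadly expressed channel known from endothelium, red blood cells and bone-forming cells, stood at 173 CPM (982 reads) in library 1 and 271 CPM (4281 reads) in library 2, a mean of 222 ± 68.9 (SD, n = 2). The exact 95% Poisson interval was 163 to 185 CPM in the first and 263 to 279 CPM in the second. It was 1.56-fold higher in library 2 (adjusted p = 3.61e-38, exact binomial test) and lay above 96.6% of all targets in library 1 and 98.3% in library 2. Its mm10 position is chromosome 8, 122481698 to 122551329. Endothelial markers did not share this direction. Of 10, 6 were higher in library 1 and no marker was higher in library 2, and their summed level was 832 CPM in library 1 and 611 in library 2. Of 5 erythroid markers 4 were higher in library 1 and 1 was not called, with summed levels of 1471 and 1253 CPM. Osteoblast markers leaned in the direction of Piezo1, with 6 of 8 higher in library 2, 2 in library 1 and a median difference of 0.66. Their summed levels lay close together at 166636 and 171917 CPM. Of 7 smooth muscle and pericyte markers 5 were higher in library 2 and 1 in library 1, with 1 left uncalled. Their sums were 524 and 807 CPM. None of these markers was at 0. In bulk tissue, fewer cells of a type and less RNA per cell cannot be told apart.

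Piezo2, the channel of touch and position sense in sensory neurons and Merkel cells of the skin, differed most of all members. It stood at 29.7 CPM (168 reads, interval 25.3 to 34.5) in library 1 and at 90.6 CPM (1431 reads, interval 85.9 to 95.4) in library 2. The mean was 60.1 CPM ± 43.1 (SD, n = 2). Piezo2 was 3.05-fold higher in library 2 (adjusted p = 2.35e-54, exact binomial test), and 97.7% of the targets at a mean of 10 CPM or more had a lower log2 difference. Reads of Piezo1 outnumbered those of Piezo2 5.85 to 1 in library 1 (interval 4.96 to 6.93) and 2.99 to 1 in library 2 (interval 2.82 to 3.18). The same amplicons were read in both libraries, and the intervals of this ratio did not overlap. Its mm10 position is chromosome 18, 63010213 to 63387183.

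Several cell type marker lists were higher in library 2 beside Piezo2, and not only those of neural or skin cells. Chondrocyte markers (11 of 11, median difference 1.29) and tooth germ genes (5 of 6, median 1.32) were among them. So were smooth muscle and pericyte markers (5 of 7, median 0.83). Skeletal muscle (11 of 11), tendon (5 of 6) and endothelial markers (6 of 10), among others, were instead higher in library 1. For scale, the exact binomial test called 20.0% of all targets higher in library 2. Of 8 neuron markers 7 were called higher there and none lower, with summed levels of 186 and 765 CPM and no marker at 0. Among them Prph, an intermediate filament gene of peripheral neurons, was at 2.65 and 55.1 CPM, and Isl1, a transcription factor gene of sensory and motor neurons, at 1.24 and 1.71 CPM. Of 6 Schwann cell markers 5 were higher in library 2, with sums of 594 and 1511 CPM. All 6 olfactory sensory neuron markers were higher there, with sums of 94.8 and 501 CPM. Of 5 Merkel cell markers 2, the keratin genes Krt8 and Krt18, were higher in library 2, with sums of 9.18 and 95.4 CPM. The library 2 sum was mostly these keratins, with Krt18 at 2.30 and 62.6 CPM and Krt8 at 2.12 and 28.7 CPM. Sox2, another Merkel cell marker, was at 4.24 and 3.29 CPM and was not called. Atoh1, the factor that specifies Merkel cells, was at 0.530 and 0.823 CPM and Krt20 at 0 in both libraries. Of 6 keratinocyte markers, 2 were higher in each library, with sums of 100.1 and 99.2 CPM. The part of these cell types in the Piezo2 difference was not tested.

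The co-activators followed. Yap1 stood at 82.5 CPM (467 reads, interval 75.1 to 90.3) in library 1 and 108 CPM (1714 reads, interval 103 to 114) in library 2, a mean of 95.5 ± 18.4 (SD, n = 2). It was 1.32-fold higher in library 2 (adjusted p = 5.22e-07, exact binomial test). Wwtr1 stood at 32.0 CPM (181 reads, interval 27.5 to 37.0) and 55.4 CPM (875 reads, interval 51.8 to 59.2), a mean of 43.7 ± 16.6 (SD, n = 2). It was 1.73-fold higher in library 2 (adjusted p = 1.28e-11, exact binomial test). Both genes were thus above their library 1 interval in library 2. Reads of Yap1 outnumbered those of Wwtr1 2.58 to 1 (interval 2.17 to 3.08) in library 1 and 1.96 to 1 (interval 1.80 to 2.13) in library 2, so the difference was proportionally larger for Wwtr1. Yap1 lies on mm10 chromosome 9 from 7931999 to 8004596 and Wwtr1 on chromosome 3 from 57455649 to 57575910.

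The partners of YAP and TAZ and the kinases that restrain them come next. All 4 TEAD factor genes exceeded 10 CPM in both libraries, and they split by library. Tead2, at 91.6 and 118 CPM (adjusted p = 1.36e-06), and Tead3, at 54.4 and 85.8 CPM (adjusted p = 5.07e-13), were higher in library 2 in the exact binomial test. Tead1, at 47.0 and 35.1 CPM (adjusted p = 0.000488), and Tead4, at 29.0 and 16.7 CPM (adjusted p = 5.11e-07), were higher in library 1 in the same exact test. Among the Vgll cofactors, which compete with YAP for TEAD factors or replace it, Vgll4 was highest at 31.4 and 69.5 CPM and was called higher in library 2, and Vgll3 stood at 18.9 and 19.6 CPM. Of 12 Hippo kinase and adaptor genes, all of them at 10 CPM or more in both libraries, 5 were higher in library 2 and 2 in library 1, with 5 left uncalled. The share higher in library 2 lies near its background of 37.0%, and the share higher in library 1 below its background of 32.5%, among targets averaging 10 CPM or more. Lats1 was at 48.6 and 64.1 CPM and Lats2 at 34.3 and 55.8 CPM, both above library 1 in library 2 (exact binomial test, adjusted p = 0.000150 for Lats1 and 1.04e-09 for Lats2). Nf2, the gene of the upstream activator merlin, had the highest mean of that list at 75.0 and 114 CPM. Map4k4, a kinase gene that acts on LATS, was at 85.8 and 95.6 CPM and was not called. Stk3, which encodes the kinase MST2, had the largest log2 difference of these kinases and adaptors at 38.7 and 67.0 CPM.

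Junction and polarity regulators of the pathway were detected in 14 of 15 cases, and 9 were higher in library 2 and 3 in library 1, with 3 left uncalled, beside 20.0% and 17.1% of all targets and 37.0% and 32.5% of those at a mean of 10 CPM or more. Fat1, an atypical cadherin gene, stood at 219 and 447 CPM. Dchs1, which encodes the ligand of the cadherin FAT4, stood at 321 and 337 CPM and was not called. Among those averaging at least 10 CPM, Wwc1, the gene of the scaffold KIBRA, had the largest difference at 4.94 and 18.0 CPM. Crb3, a polarity gene below that mean (named after its value was seen), differed more, at 0.706 and 6.46 CPM. The median difference was 0.38 for this list and 0.23 for the kinases and adaptors, beside 0.05 for targets at a mean of 10 CPM or more.

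Ankrd1 stood apart from the other members. Its protein, which binds titin in the sarcomere and also acts in the nucleus, is known from heart and stretched skeletal muscle. It stood at 10.4 CPM (59 reads, interval 7.93 to 13.4) in library 1 and 4.37 CPM (69 reads, interval 3.40 to 5.53) in library 2, a mean of 7.39 ± 4.28 (SD, n = 2). It was 2.39-fold higher in library 1 (adjusted p = 8.81e-06, exact binomial test). On the log2 scale the difference was -1.09, and 5.61% of the targets at a mean of 10 CPM or more had a lower one. Its mm10 position is chromosome 19, 36111961 to 36120099.

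Muscle markers had the direction of Ankrd1. All 11 skeletal muscle markers were higher in library 1, with summed levels of 46589 and 14897 CPM and a median difference of -1.71. The share called higher in library 1 was 17.1% of all targets and 32.5% of those at a mean of 10 CPM or more. Of 7 cardiac muscle markers 3 were higher in library 1, while 4 went uncalled, with sums of 27.7 and 11.6 CPM. The cardiac factor gene Nkx2-5 was at 0 in both libraries and Myl7, the atrial myosin light chain gene, at 0 in library 1. Ankrd2, a related muscle ankyrin gene, was at 58.3 and 74.5 CPM and was higher in library 2 (adjusted p = 0.000264, exact binomial test), unlike the muscle markers. The part of muscle in the Ankrd1 difference was not tested.

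Cyr61 and Ctgf, read out alongside Ankrd1 in studies of YAP, had the other direction. Cyr61 stood at 113 CPM (639 reads, interval 104 to 122) in library 1 and 167 CPM (2643 reads, interval 161 to 174) in library 2, a mean of 140.0 ± 38.5 (SD, n = 2). It was 1.48-fold higher in library 2 (adjusted p = 3.30e-19, exact binomial test). Ctgf, whose protein drives matrix production and cartilage and bone growth, was the highest member. It stood at 382 CPM (2162 reads, interval 366 to 398) and 464 CPM (7325 reads, interval 453 to 474), a mean of 423 ± 57.8 (SD, n = 2). Its 1.21-fold difference was the smallest of the members and was called (adjusted p = 9.28e-15, exact binomial test). Ctgf lay above 98.9% of all targets in library 1 and 99.2% in library 2. Cyr61 reads outnumbered Ankrd1 reads 10.8 to 1 (interval 8.29 to 14.4) in library 1 and 38.3 to 1 (interval 30.2 to 49.4) in library 2. The intervals of this ratio, which cover counting error only, did not overlap. Cyr61 lies on mm10 chromosome 3 from 145646976 to 145649981 and Ctgf on chromosome 10 from 24595442 to 24598683.

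The remaining CCN genes were lower than Ctgf. Wisp1, a Wnt-induced gene of bone-forming cells, stood at 74.7 CPM (423 reads, interval 67.7 to 82.2) in library 1 and 158 CPM (2500 reads, interval 152 to 165) in library 2, a mean of 116 ± 59.1 (SD, n = 2). It was 2.12-fold higher in library 2 (adjusted p = 9.58e-53, exact binomial test), the largest difference among the CCN genes. Nov, whose protein can oppose that of Ctgf, stood at 73.3 CPM (415 reads, interval 66.4 to 80.7) and 109 CPM (1728 reads, interval 104 to 115), a mean of 91.3 ± 25.5 (SD, n = 2). It was 1.49-fold higher in library 2 (adjusted p = 3.28e-13, exact binomial test). Wisp2, whose protein lacks the C-terminal domain of the other CCN proteins, stood at 18.9 CPM (107 reads, interval 15.5 to 22.8) and 29.6 CPM (467 reads, interval 26.9 to 32.4), a mean of 24.2 ± 7.54 (SD, n = 2). It was 1.56-fold higher in library 2 (adjusted p = 7.22e-05, exact binomial test). Nov lies on mm10 chromosome 15 from 54745702 to 54754039, Wisp1 on chromosome 15 from 66891320 to 66923201 and Wisp2 on chromosome 2 from 163820861 to 163833146.

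Added up, the 5 CCN genes reached 661 CPM in library 1, against 928 CPM in library 2. Ctgf took 57.7% of those reads in library 1 and 50.0% in library 2, and Cyr61 took 17.1% and 18.0%. The share of Wisp1 was 11.3% and 17.0%, that of Nov 11.1% and 11.8%, and that of Wisp2 2.86% and 3.18%. The share of Wisp1 was thus larger and that of Ctgf smaller in library 2. Reads of Wisp1 and Nov were not told apart in library 1 (ratio 1.02, interval 0.888 to 1.17), whereas Wisp1 led in library 2 (ratio 1.45, interval 1.36 to 1.54).

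**Figure D3:**
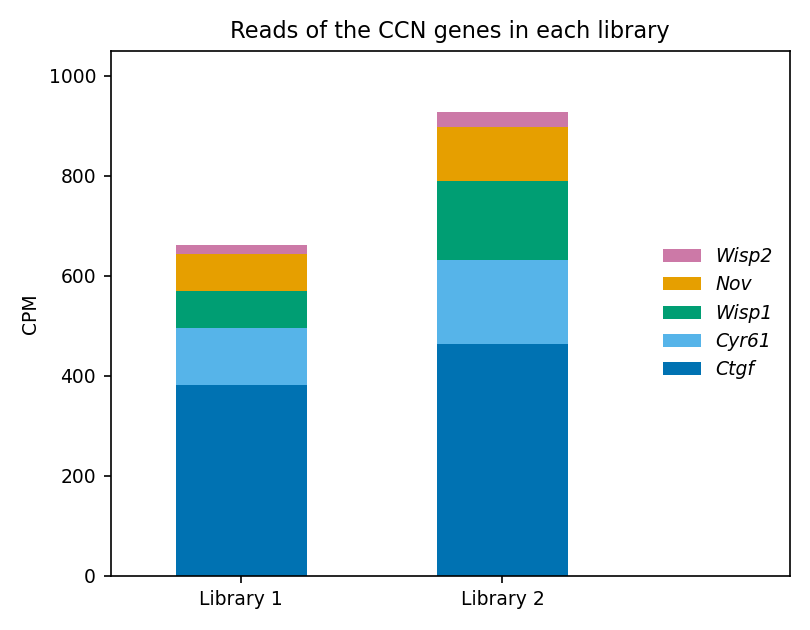
Level of the 5 CCN genes in CPM, stacked for each library. The sum is 661 CPM in library 1 and 928 CPM in library 2, and the Wisp1 block is 74.7 CPM in library 1 and 158 CPM in library 2.

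Skeletal cell types that are known sources of CCN proteins differed between the libraries as well. All 11 chondrocyte markers were higher in library 2, with summed levels of 1648 and 4920 CPM. Of 8 osteoblast markers 6 were higher in library 2 and 2 in library 1, with a median difference of 0.66. Their sums of 166636 and 171917 CPM were mostly Col1a1, at 119187 and 132878 CPM. Of 13 suture mesenchyme markers 8 were higher in library 2 and 3 in library 1, with 2 left uncalled, with sums of 932 and 1041 CPM. Tendon markers leaned the other way, with 5 of 6 higher in library 1 and a median difference of -1.03. Their sums of 1013 and 899 CPM include the exception, Fmod, at 449 and 720 CPM. None of these markers was at 0. Of 6 tooth germ genes 5 were higher in library 2, with sums of 548 and 1123 CPM. The part of any of these cell types in the CCN differences was not tested.

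Of the receptors that CCN proteins bind, all 13 genes exceeded 10 CPM in both libraries. Of them 7 were higher in library 2 and 3 in library 1, with 3 left uncalled, with a median difference of 0.27. The background for targets averaging 10 CPM or more was 37.0% and 32.5% in these directions. Lrp1, a large endocytic receptor gene, was highest and differed most, at 329 and 954 CPM. Itgb5, the gene of integrin beta 5, followed at 232 and 362 CPM and was called higher in library 2.

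Other YAP and TAZ targets were taken from a published target signature, without the members in it. All 19 were detected, and 11 were higher in library 2 and 4 in library 1, with 4 left uncalled. Of all targets at a mean of 10 CPM or more, 37.0% and 32.5% were called in these directions. With edgeR's exact test at an assumed dispersion of 0.1, 0 of the 19 were called in either direction. The median difference of these targets was 0.41. Amotl2, Lats2 and Ptpn14 are counted here and also among the Hippo genes. The most abundant target, Igfbp3, which encodes a binding protein of insulin-like growth factors, was at 353 and 207 CPM, and the matrix gene Ccdc80 was at 223 and 162 CPM. Both were higher in library 1 (exact binomial test, adjusted p = 3.43e-73 for Igfbp3 and 1.58e-18 for Ccdc80), against the direction of Ctgf and Cyr61. F3, the gene of tissue factor, had the largest difference at a mean of 10 CPM or more, at 7.42 and 17.1 CPM (adjusted p = 3.12e-07, exact binomial test), toward library 2.

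SRF and its MRTF co-activators form a second route from the actin skeleton to transcription and share some targets with YAP. Mkl1, which encodes MRTF-A, was at 53.0 and 98.7 CPM and was higher in library 2 (adjusted p = 1.19e-24, exact binomial test). Srf was at 42.7 and 47.2 CPM and was not called. Of 12 SRF and MRTF targets, 7 were higher in library 2 and 4 in library 1, with 1 left uncalled, beside the same 37.0% and 32.5%. The actin crosslinker gene Flna was at 825 and 1298 CPM, higher in library 2. Tpm1, a tropomyosin gene that striated muscle also uses, was at 1326 and 386 CPM, higher in library 1 like the skeletal muscle markers.

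Focal adhesion and nuclear lamina genes, which carry force from the matrix to the nucleus, were detected in all 18 cases. Of them 9 were higher in library 2 and 2 in library 1, with 7 left uncalled, with a median difference of 0.19, beside 37.0% and 32.5% called among targets at a mean of 10 CPM or more. Lmna, the lamin A gene, was at 886 and 1022 CPM, and the integrin activator gene Tln1 was at 192 and 275 CPM. Syne2, which links the nuclear envelope to actin, had the largest difference at 16.1 and 29.4 CPM.

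Other channels with a known or proposed role in mechanosensing were all below Piezo1 in both libraries. Of 16 genes 14 were detected and 9 reached 10 CPM in both libraries. Of the 16, 6 were higher in library 2 and 1 in library 1, with 9 left uncalled, beside 20.0% and 17.1% of all targets. The gene higher in library 1, Trpv4 (named after its value was seen), was at 34.8 and 28.2 CPM (adjusted p = 0.0432, exact binomial test) and was not called when the 10 highest targets were left out of the totals. Pkd1, the gene of polycystin-1, was highest, at 77.2 and 152 CPM, and differed most among those at a mean of 10 CPM or more. Tmem63b, a gene of osmosensitive channels, followed at 62.3 and 83.5 CPM.

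**Figure D4:**
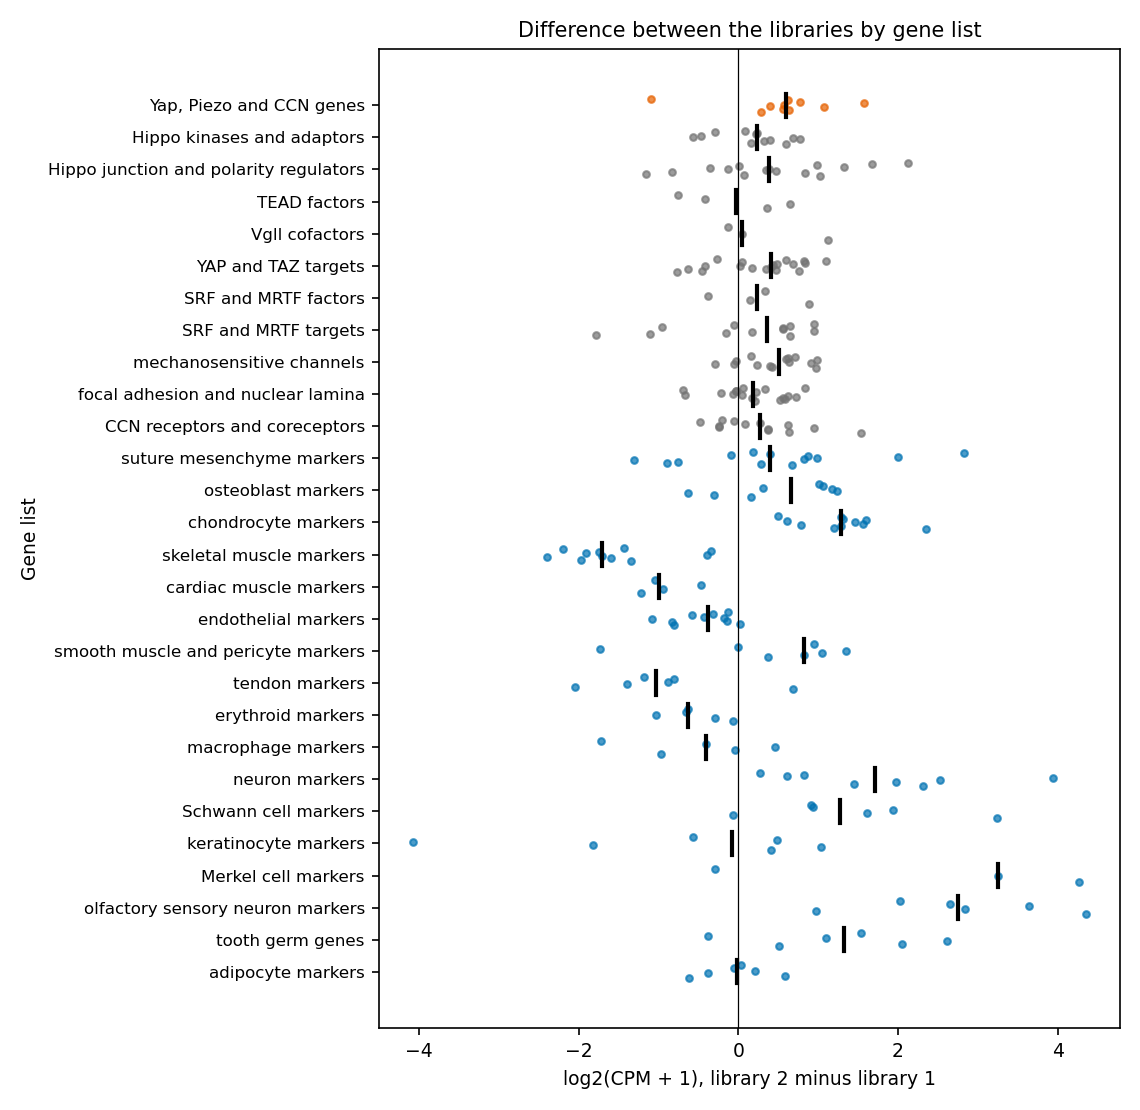
Difference in log2(CPM + 1), library 2 minus library 1, for each gene at a mean of 1 CPM or more (points) and the median of each list (black bars), for the 10 members (orange), pathway lists (grey) and cell type markers (blue). The members' median is 0.60, with Ankrd1 at -1.09, while skeletal muscle markers lie at a median of -1.71 and chondrocyte markers at 1.29.

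Among 113 genes of the pathway lists, the gene nearest to each member in level over the 2 libraries was found by Euclidean distance on log2(CPM + 1). The closest pairs were Nov with Pxn, the gene of the adhesion scaffold paxillin (distance 0.05), and Cyr61 with Zyx, the gene of the adhesion protein zyxin (0.07). Piezo1 lay nearest to Parva (0.07), Wisp1 to Pkd1 (0.07), Wwtr1 to Lats2 (0.10) and Yap1 to Nf2 (0.15). Wisp2 was nearest to Rock2 (0.20), Ctgf to Cnn2 (0.37) and Piezo2 to Vgll4 (0.38). Ankrd1 had the most distant neighbour, Vgll2 (0.68). These distances rest on 2 libraries and describe levels alone.

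Suture stem cells are the labelled cell type, whereas whole suture tissue without a sort is what the protocol describes. All 13 suture mesenchyme markers were detected, and so were all 11 skeletal muscle, 11 chondrocyte and 10 endothelial markers, so the values are those of a mixed tissue. Whether the libraries come from separate pups is not stated in the labels, so how much of their spread is technical cannot be told. Summed levels of skeletal muscle markers were 46589 and 14897 CPM, and those of olfactory sensory neuron markers 94.8 and 501 CPM. The cause of such differences was not tested.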

How the data were processed

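Per the labels' protocols, total RNA of cranial suture tissue was extracted with a column kit and sequenced with the Ion AmpliSeq mouse transcriptome panel. The submitters' processing notes name mm10 as the build, while aligner, counter and filters were not given in the sources used here. In 1 table the authors gave CPM (deposited values) for 23930 targets in 2 libraries. All values above 0 (100%) were whole multiples of a step, with a tolerance of 0.01 of a read, so reads were recovered, 5663344 in library 1 and 15802610 in library 2. A limit of 3 reads corresponds to 0.530 and 0.190 CPM. Dates in place of 27 gene symbols were restored from the target names.

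From these CPM values, log2(CPM + 1) with a pseudocount of 1 CPM, SDs over the 2 libraries and exact 95% Poisson or binomial intervals were computed. This scale understates the change of low genes. The intervals and the exact binomial test model the counting of reads alone, with no term for variation between libraries. No molecular identifiers mark the panel reads, so amplified copies of a molecule cannot be told from separate molecules. The error of counting molecules may therefore be larger than these intervals and p-values allow. Each target was compared between the libraries by an exact binomial test (two-sided, SciPy 1.17.1) of the recovered reads at a threshold of 0.05, with Benjamini-Hochberg adjustment over all targets, which called 8863 targets. It compares libraries, not conditions. The simulated reads on which it was tried varied by counting alone, so they do not show how it behaves under variation between libraries. An exact test of edgeR 4.0.16 at an assumed dispersion of 0.1, other scalings (TMM, median of ratios, totals without the 10 highest targets or without skeletal muscle markers), other filters and pseudocounts were tried as alternatives.

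Gene positions are from GENCODE M21 and promoter sequences from RefSeq, GRCm38.p6, the build of mm10. Members and the 28 gene lists (11 pathway and 17 marker lists, 253 genes, of which 14 were not used here for want of a target of that symbol) were chosen with earlier results of these data known. Named were all members, the TEAD factors, Lats1 and Lats2, and per pathway list the 2 highest detected genes by mean CPM and the gene with the largest difference at a mean of 10 CPM or more. A nearest gene per member was also named. Marker genes, and others outside the rule, were picked after seeing their values.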

Additional observations from a re-analysis of the deposited data

How the results depend on the processing

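The log2 difference of every member kept its direction and its call with a pseudocount of 0.5 or 5 CPM and with each of the other scalings. Piezo2 ranged from 1.46 to 1.61, Ankrd1 from -1.17 to -0.72 and Ctgf from 0.23 to 0.31. All 10 members were called among targets at a mean of 1 CPM or more. Among targets at a mean of 10 CPM or more 9 were called, all higher in library 2, and 0 were called higher in library 1, because Ankrd1 lies below that mean and was not tested. With edgeR's exact test at an assumed dispersion of 0.1, which allows for variation beyond counting, 0 members were called in all, 0 higher in library 2 and 0 higher in library 1 (adjusted p from 0.377 for Piezo2 to 1), and 382 of all targets were called. The same test called 0 genes of the pathway lists, save 1 junction and polarity regulator toward library 2. The dispersion was assumed, since an estimate from these 2 libraries would rest on the very difference that was tested, and the differences given therefore hold against counting error only. The scalings shifted all differences by 0.05 or less on the log2 scale. All 10 members reached 1 CPM without replicate 1 and without replicate 2, and 10, 10 and 9 reached 0.5, 2 and 10 CPM in both libraries. No paired analysis was possible because there is 1 group.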

Other observations

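Some relatives of the members were at or near 0, which sets off the levels of the members (genes named after their values were seen). Tmc2, a channel gene of inner ear hair cells, and Vgll1, a Vgll cofactor gene, had 0 reads in both libraries. If their amplicons amplify, this allows levels up to 0.530 CPM (library 1) and 0.190 CPM (library 2). Amplicons amplify unequally, and this was not checked for the genes named here. Tmc1, the other hair cell channel gene, was read 3 and 4 times (0.530 and 0.253 CPM). Wisp3, the sixth gene of the CCN family (now Ccn6), was read 3 times in library 1 and 6 times in library 2 (0.530 and 0.380 CPM), whereas the other CCN genes each had at least 107 reads in a library. Foxf2 was the lowest of the other YAP and TAZ targets at 2.12 and 1.58 CPM.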
